A study of Mus musculus with 3 samples.

Results

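The imprinted growth-control genes are a panel of 10 mouse genes, H19, Meg3, Cdkn1c, Grb10, Dlk1, Peg3, Plagl1, Mest, Ndn and Sgce, taken by symbol from the gene names in the array files. Igf2 and Igf2r were left out of the panel. Non-control probes carrying these symbols numbered 20, out of 41174 probes for 27729 genes on the array. Of the 10 genes, 3 had 1 probe, 4 had 2 probes and 3 had 3 probes.

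RNA came from C3H10T1/2 cells, a line of mouse embryo origin with fibroblast shape, much used to study transformation in culture. The 3 groups were untreated cells, cells given hexavalent chromium, Cr(VI), at 0.01 uM and cells given Cr(VI) at 1 uM. Exposure began 24 h after 2000 cells had been seeded in each flask and lasted 48 h, and the cells were then grown on without chromium until day 15, when RNA was isolated. Each group had 3 flasks but 1 array, and no label tells if flasks were combined before RNA isolation. There were therefore no replicates, no test between doses was possible, and every difference below is one between 2 single arrays of the same slide. Both dose arrays were set against the same untreated array, so these comparisons share it.

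An imprinted gene is expressed from only the maternal or only the paternal copy, because its control region was methylated differently in the egg and the sperm. H19, Meg3, Cdkn1c and Grb10 are expressed from the maternal copy in most tissues, and Dlk1, Peg3, Plagl1, Mest, Ndn and Sgce from the paternal copy. Many of these genes act on fetal growth, are high in embryonic mesenchyme and decline after birth. The arrays measured total RNA of each gene and did not separate the parental copies.

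On each array most of the panel was not well above background. The share above it on no array, 6 of 10 genes, was close to that of all genes. By the scanner software's own test of each spot, 2 of the 10 genes were well above background in untreated cells, 3 after 0.01 uM and 3 after 1 uM. The matching shares of all genes were 42.9% (untreated), 38.8% (0.01 uM) and 43% (1 uM). Sgce and Grb10 were above background on all 3 arrays, Peg3 only on the 0.01 uM array and Plagl1 only on the 1 uM array. The other 6 genes, H19, Meg3, Cdkn1c, Dlk1, Mest and Ndn, were above background on no array, as were 55% of all genes. A probe that is not well above background has only an upper limit, and the transcript may still be present below it.

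Probes of H19, Meg3 and Dlk1, among the undetected genes, are printed here because they define which stretch of each transcript was asked about. Each is 60 bases, 5′ to 3′ as the array files give it, in lower case throughout since no part is singled out, and coordinates are those of the array files (mm9). The first H19 probe crosses a splice junction between chr7:149762018-149762165 on the minus strand, and the second lies at chr7:149761769-149761828. The 3 Meg3 probes follow the transcript on the plus strand of chromosome 12, the first across a junction between 110787974 and 110796459, the second at 110797172 to 110797231 and the third at 110799558 to 110799617. The Dlk1 probe shown lies at chr12:110698428-110698487 on the plus strand. The other Dlk1 probe and those of Cdkn1c, Mest and Ndn are not printed.
H19 probe 1: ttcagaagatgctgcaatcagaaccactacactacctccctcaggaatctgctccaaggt
H19 probe 2: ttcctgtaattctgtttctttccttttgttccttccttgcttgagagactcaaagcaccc
Meg3 probe 1: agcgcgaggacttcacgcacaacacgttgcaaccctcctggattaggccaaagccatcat
Meg3 probe 2: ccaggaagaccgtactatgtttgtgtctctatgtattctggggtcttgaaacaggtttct
Meg3 probe 3: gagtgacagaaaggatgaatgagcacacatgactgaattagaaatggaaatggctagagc
Dlk1 probe 1: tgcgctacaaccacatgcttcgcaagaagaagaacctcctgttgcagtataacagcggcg

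The next 3 probes are shown because they test the detected genes at further points of the transcript, away from the brightest probe by which a gene was counted. Grb10 probe 1 sits at position 255 of its transcript (chr11:11870574-11870633, minus strand) and Grb10 probe 2 at position 1886, across a junction within chr11:11833580-11834228. Grb10 probe 3, at position 4501 (chr11:11830965-11831024), and Sgce probe 2, at position 1529 (chr6:4624457-4624516, minus strand), are named without sequence. Sgce probe 1 is at position 882 and crosses a junction within chr6:4641640-4644080.
Grb10 probe 1: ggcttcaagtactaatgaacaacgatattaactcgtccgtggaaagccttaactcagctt
Grb10 probe 2: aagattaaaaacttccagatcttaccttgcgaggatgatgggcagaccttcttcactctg
Sgce probe 1: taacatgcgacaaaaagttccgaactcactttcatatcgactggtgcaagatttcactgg

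The values below are log2 processed signals scaled so that 0 is the 75th percentile of an array's own probes. On this scale the lowest detected signal was -3.02 (untreated), -2.11 (0.01 uM) and -2.81 (1 uM). Levels of different probes cannot be set against each other, since probes differ in how strongly they bind.

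**Figure D1:**
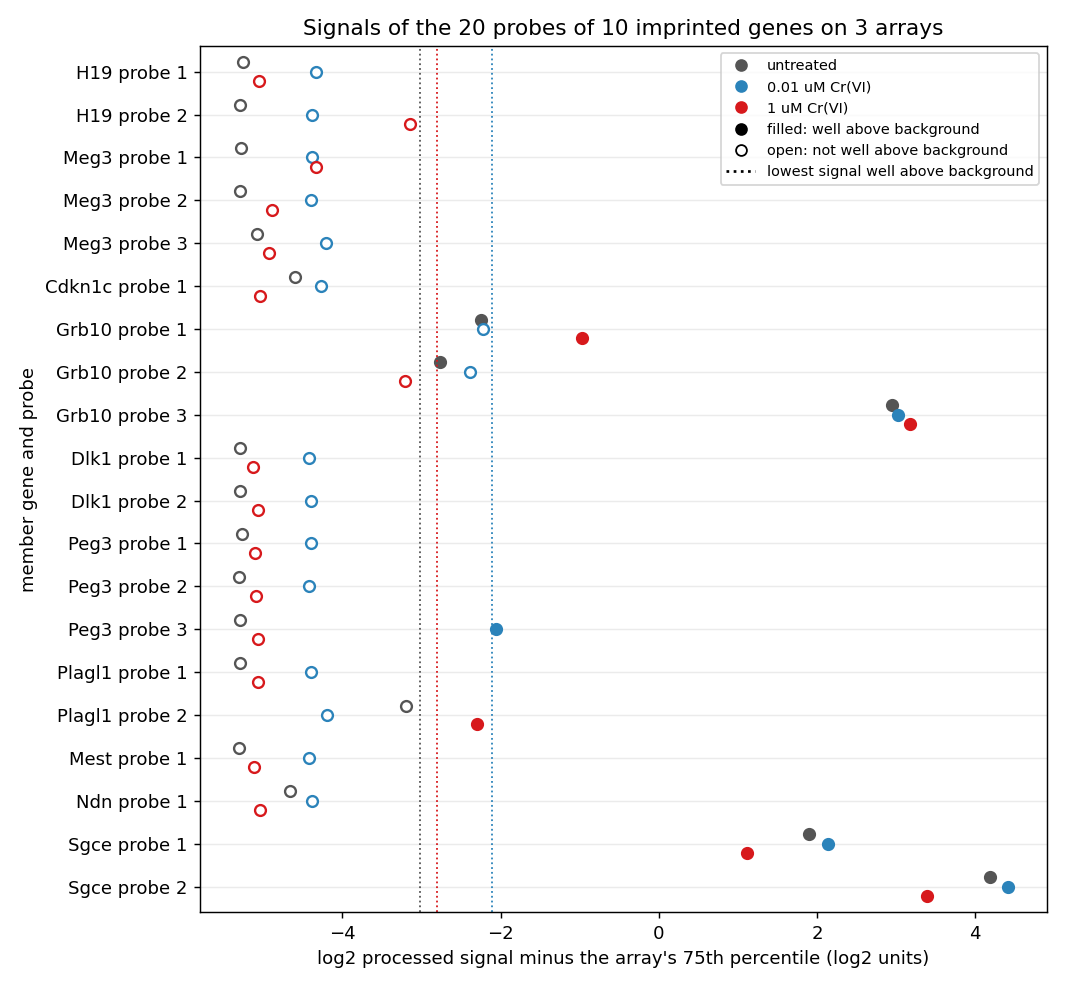
Scaled log2 signal (horizontal axis, log2 units relative to each array's 75th percentile) of the 20 probes of the 10 genes (vertical axis) on the untreated, 0.01 uM and 1 uM arrays; each point is 1 array, filled where well above background, and dotted lines are each array's lowest signal well above background. Only Sgce probes 1 and 2 and Grb10 probe 3 are filled on all 3 arrays, and most open points stack at each array's floor.

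Among the maternally expressed genes, H19, a long noncoding RNA that is abundant in embryonic mesenchyme, was not well above background at either probe. H19 probe 2 read -5.29 (untreated), -4.39 (0.01 uM) and -3.14 (1 uM), and its processed signals were 17.8, 24.7 and 85.1 in the same order. The 1 uM value lay highest and still under that array's limit of -2.81. H19 probe 1 read -5.25, -4.33 and -5.05, so the other H19 probe was not high on the 1 uM array.

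Meg3, a long noncoding RNA of the Dlk1-Dio3 cluster, read -5.28, -4.38 and -4.33 at probe 1, in order of rising dose. Its probes 2 and 3 lay between -5.30 and -4.20 on the 3 arrays. Cdkn1c, an inhibitor of cyclin-dependent kinases, read -4.60 (untreated), -4.27 (0.01 uM) and -5.04 (1 uM). All of these values lay under the detection limit of their array.

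Grb10, an adapter that binds the insulin and IGF receptors and restrains growth signalling, was the one maternally expressed gene of the panel seen on all 3 arrays. At its brightest probe, probe 3, it read 2.95 (untreated), 3.03 (0.01 uM) and 3.17 (1 uM). The 1 uM value exceeded the untreated one by 0.23 ± 0.20 on the log2 scale (1.17-fold), where the error is the technical standard error that the scanner software's error model gives for a difference between 2 spots. It exceeded the 0.01 uM value by 0.14, and the 0.01 uM value exceeded the untreated one by 0.08. Each of these differences is close to or under 1 technical error, and that of 0.01 uM against untreated changed sign with the scaling. In RNA of a whole culture, a change in the number of cells expressing a gene and a change in its RNA per cell cannot be told apart.

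The first Grb10 probe behaved unlike the third. Grb10 probe 1 read -2.24 (untreated), -2.22 (0.01 uM) and -0.98 (1 uM), the middle one not well above background. Its 1 uM signal was 1.27 ± 0.30 (log2, technical error) above untreated, or 2.41-fold, and at least 2.20-fold above 0.01 uM. Among all probes compared, 5.38% were 2-fold or more higher and 4.71% lower in the first of these comparisons, and 5.12% were higher in the second. With normexp background correction the first difference was 0.77 on the log2 scale, under 2-fold. The second was at least 0.55, a bound that does not reach 2-fold.

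Grb10 probe 2, between the others in the transcript, read -2.76 (untreated), -2.39 (0.01 uM) and -3.21 (1 uM), and it was well above background only in untreated cells. Its untreated signal was at least 1.03-fold above the 1 uM signal, a bound with no upper limit. The 2 Grb10 probes measured on both arrays thus differed by 1.04 in their log2 difference between 1 uM and untreated. Of 3690 genes with at least 2 such probes, 5.58% showed a range as wide, and the median range was 0.24. Whether the probes report different transcripts of Grb10 was not tested.

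Mouse Grb10 is known for alternative promoters, a major one used by the maternal copy in most tissues and others used by the paternal copy in neurons. RefSeq (GRCm38.p6) lists 2 starts for the gene, 9449 bases apart. Their windows of 300 bases, from 250 before to 50 after the start, hold 45 and 9 CG dinucleotides, counted as the letters CG on the strand shown. Of 32851 such windows in the mouse annotation, 1.93% hold as many as 45 and 45.8% as many as 9. The 250 bases before each start are given on the minus strand with CG in capitals, at chr11:12037421-12037670 for the first and chr11:12027972-12028221 for the second. The arrays do not show which start was in use.
Grb10 upstream, CG-rich start: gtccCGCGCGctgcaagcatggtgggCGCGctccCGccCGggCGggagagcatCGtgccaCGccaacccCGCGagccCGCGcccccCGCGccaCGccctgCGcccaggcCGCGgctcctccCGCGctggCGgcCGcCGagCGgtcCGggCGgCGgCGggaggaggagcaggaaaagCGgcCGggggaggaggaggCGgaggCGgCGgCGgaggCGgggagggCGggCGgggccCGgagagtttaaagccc
Grb10 upstream, other start: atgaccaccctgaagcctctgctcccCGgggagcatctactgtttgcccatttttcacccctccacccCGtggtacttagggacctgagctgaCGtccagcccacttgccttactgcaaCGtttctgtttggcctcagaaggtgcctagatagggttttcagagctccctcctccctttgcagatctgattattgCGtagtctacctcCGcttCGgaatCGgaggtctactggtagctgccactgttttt

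Of the 10 genes, 7 had a RefSeq window, and some had several. The window richest in CG of each held from 9 in Dlk1 to 45 in Grb10, above the median of 7 over single windows. Taking the richest window favours genes with several starts, and the share of all genes that would pass was not computed. At the richest window Plagl1 held 26, Mest 17, Meg3 and Peg3 13 each, and Ndn 11. The poorest window held 1 in Meg3 and 8 in Mest. H19, Cdkn1c and Sgce were not matched.

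Among the paternally expressed genes, Sgce was the one above background at every probe on every array. It encodes epsilon-sarcoglycan, a membrane protein of the dystrophin-associated complex. Sgce probe 2 had processed signals of 12736 (untreated), 11009 (0.01 uM) and 7874 (1 uM), and scaled values of 4.19, 4.42 and 3.39. Sgce probe 1 had processed signals of 2606, 2276 and 1625 and scaled values of 1.90, 2.14 and 1.11. At both probes the 1 uM array was the lowest, before and after scaling.

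The 2 Sgce probes gave almost the same difference. The 1 uM signal was lower than untreated by a log2 difference of -0.80 ± 0.20 at probe 2 (1.75-fold) and -0.79 ± 0.21 at probe 1 (1.73-fold). Against 0.01 uM the differences were -1.03 at both probes, a fold of 2.04, where 6.34% of all probes were 2-fold or more lower. The 0.01 uM signal was above untreated by 0.23 at probe 2 and 0.24 at probe 1. The probes' log2 differences from untreated at 1 uM differed by 0.013, and 3.33% of the genes with several measured probes had a range as narrow. Agreement of probes on the same 2 arrays bears on measurement error and not on differences between cultures. The fold between 1 uM and 0.01 uM fell under 2 with 5 of the 11 settings tried.

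**Figure D2:**
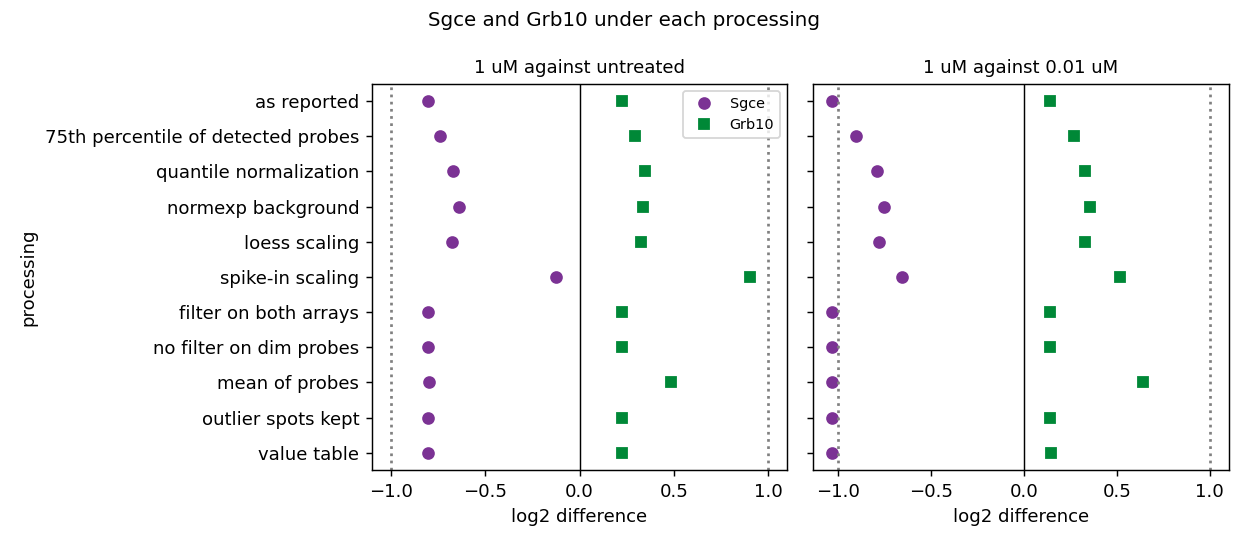
Log2 difference (horizontal axis) of Sgce (circles) and Grb10 (squares), each at its brightest probe except where probes were averaged, under the reported processing and 10 alternatives (vertical axis), for 1 uM against untreated and 1 uM against 0.01 uM; dotted lines mark 2-fold. Sgce stays below 0 throughout, from -0.80 to -0.13 against untreated, and Grb10 stays above 0, from 0.23 to 0.90.

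Dlk1, Mest and Ndn were at or near the floor. Dlk1, a transmembrane relative of Notch ligands that holds back adipocyte differentiation, read -5.29 (untreated), -4.42 (0.01 uM) and -5.13 (1 uM) at probe 1 and much the same at probe 2. Mest, a member of the alpha/beta hydrolase family, read -5.31, -4.42 and -5.12. Ndn, which encodes the growth suppressor necdin, read -4.66, -4.39 and -5.05. Where the 0.01 uM array appears highest in such genes, the values follow its higher floor and carry no order.

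Peg3, a zinc finger transcription factor gene, was above background at 1 probe on 1 array. Peg3 probe 3, at position 6461 of the transcript (chr7:6658774-6658833, minus strand), read -5.29 (untreated), -2.06 (0.01 uM) and -5.06 (1 uM). Its 0.01 uM signal was at least 1.94-fold above untreated, and its 1 uM signal was at least 1.67-fold below that of 0.01 uM. The spot's pixels had an SD of 101 intensity units on the 0.01 uM array, against 36.7 on the untreated array. Its pixel SD on the 1 uM array was 40.1. Both other Peg3 probes stayed at the floor on all 3 arrays, and whether the uneven spot accounts for the signal was not tested.

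Plagl1, a zinc finger transcription factor that can arrest the cell cycle, was above background only at 1 uM. Plagl1 probe 2 (chr10:12851280-12851339, plus strand) had processed signals of 75.8 (untreated), 28.1 (0.01 uM) and 153 (1 uM), and scaled values of -3.20, -4.20 and -2.30. The 1 uM signal was at least 1.65-fold above untreated. Plagl1 probe 1 stayed at the floor on all 3 arrays, so the gene's signal rests on 1 probe near the detection limit.

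**Figure D3:**
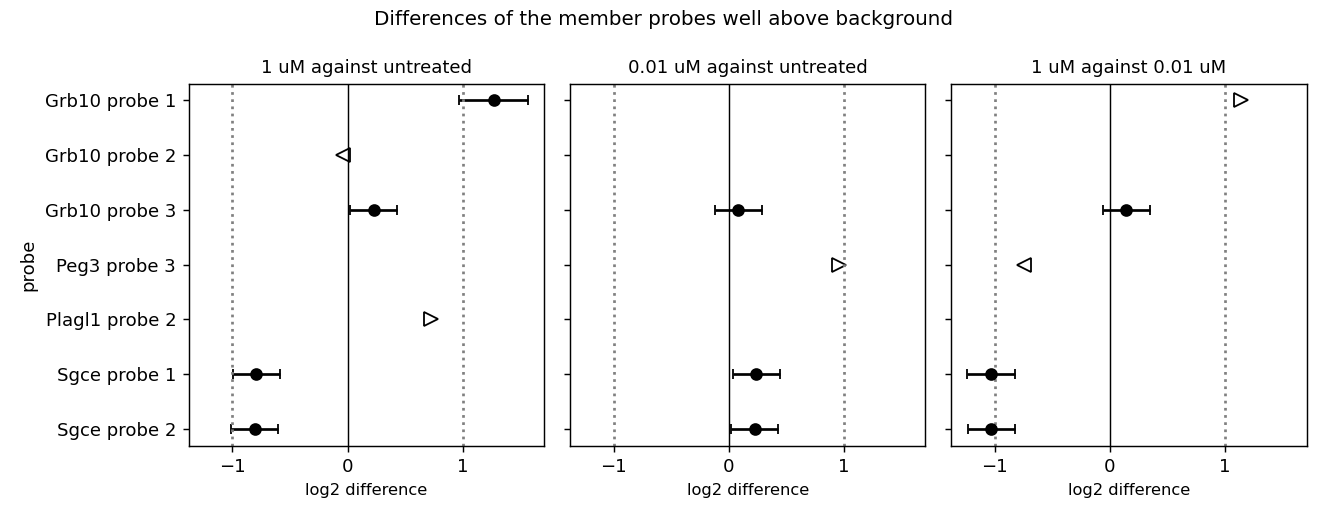
Log2 difference (horizontal axis) of each probe of the panel for which a difference could be set (vertical axis), in 3 comparisons. Points with bars are measured differences ± technical standard error, open triangles are bounds pointing towards the true value, and dotted lines mark 2-fold; the 2 Sgce probes coincide at -0.80 and -0.79 for 1 uM against untreated, while Grb10 probes 1 and 3 lie apart at 1.27 and 0.23.

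Counted by each gene's brightest probe, no gene of the panel was 2-fold apart between 1 uM and untreated among the 3 that could be compared, Grb10, Plagl1 and Sgce. Over all 12452 genes with a comparison, 5.65% passed 2-fold upwards and 4.86% downwards. At a threshold of 1.5-fold Plagl1 was higher and Sgce lower, where 13.9% of all genes were higher and 13.4% lower. The Plagl1 bound was 0.30 (log2) with normexp and 1.40 with spike-in scaling, and Sgce was at -0.13 with spike-in scaling, so neither call at 1.5-fold held in every setting. For 0.01 uM against untreated, none of Grb10, Peg3 and Sgce passed 2-fold, as against 0.269% higher and 0.168% lower of 11916 genes. At 1.5-fold Peg3 alone was higher, with 0.898% of all genes higher and 1.13% lower, and its bound of 0.51 (log2) with normexp fell under 1.5-fold. For 1 uM against 0.01 uM, 4 genes of the panel were compared, but Plagl1 gave no value. Its 1 uM signal lay under the lowest detected signal of the 0.01 uM array. Among the others, Sgce was at least 2-fold lower and none was higher, with 6.46% lower and 5.2% higher among all 12060 genes. At 1.5-fold Peg3 and Sgce were lower and none was higher, with 17.3% of all genes lower and 12.3% higher, and the Peg3 bound of -0.37 with spike-in scaling fell under 1.5-fold.

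The neighbours of these genes were examined in clusters drawn after earlier results were known. Beside the cluster counts below, 55% of all genes were above background on no array. In the Dlk1-Dio3 cluster on chromosome 12, 0 of 5 genes (Dlk1, Meg3, Rian, Mirg and Dio3) were above background on any array. Beside H19, its neighbour Igf2, a fetal growth factor, was detected on all 3 arrays, and their nearest probes are 74508 bases apart. Igf2 read 2.29 (untreated), 2.63 (0.01 uM) and -1.29 (1 uM), a log2 difference of -3.57 between 1 uM and untreated. H19 and Igf2 share enhancers and are normally expressed from opposite parental copies, and here one was bright and the other was under the limit in untreated cells.

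Near Sgce, Peg10, a retrotransposon-derived gene expressed from the same parental copy, was not above background on any array, though its probe lies 65787 bases from the nearest Sgce probe. Pon2 and Pon3, paraoxonase genes of the same cluster, were detected, Pon3 on the untreated array alone. Around Cdkn1c, 8 of 12 genes were above background on at least 1 array, among them Cd81, Nap1l4, Tssc4 and Osbpl5. In the Ndn cluster, 3 of 8 genes were seen (Peg12, Ube3a and Atp10a), and Ndn, Magel2, Mkrn3, Snrpn and Snurf were not. Beside Mest, Copg2, which encodes a coat protein subunit, was detected at a log2 difference of -0.52 between 1 uM and untreated.

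Beyond the panel, 58 other imprinted genes were on the array, and 25 (untreated), 21 (0.01 uM) and 23 (1 uM) of them were above background. These are 43.1%, 36.2% and 39.7%, beside 42.9%, 38.8% and 43% of all genes. For the other imprinted genes the median log2 difference between 1 uM and untreated was -0.10, beside -0.03 over all genes. Of 25 compared between 1 uM and untreated, 2 were lower by 2-fold or more and 1 was higher, beside 4.86% and 5.65% of all genes. The lower ones were Zrsr1, a splicing factor-related gene (-1.13), and Tspan32, a tetraspanin gene (at least 3.51-fold). Peg12, a gene of the Ndn cluster, was higher by 1.04. Of 24 compared between 1 uM and 0.01 uM, 3 were higher and 2 lower, beside 5.2% and 6.46% of all genes. The 1 uM array was higher for Atp10a, a lipid transporter gene (1.42), for Dhcr7, which encodes an enzyme of cholesterol synthesis (1.05), and for Kcnq1ot1, a noncoding RNA read at 1 of its 6 probes (at least 2.26-fold). It was lower for Zrsr1 (-1.18) and Tspan32 (at least 4.61-fold). No other imprinted gene was 2-fold apart between 0.01 uM and untreated, beside 0.269% of all genes higher and 0.168% lower.

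**Figure D4:**
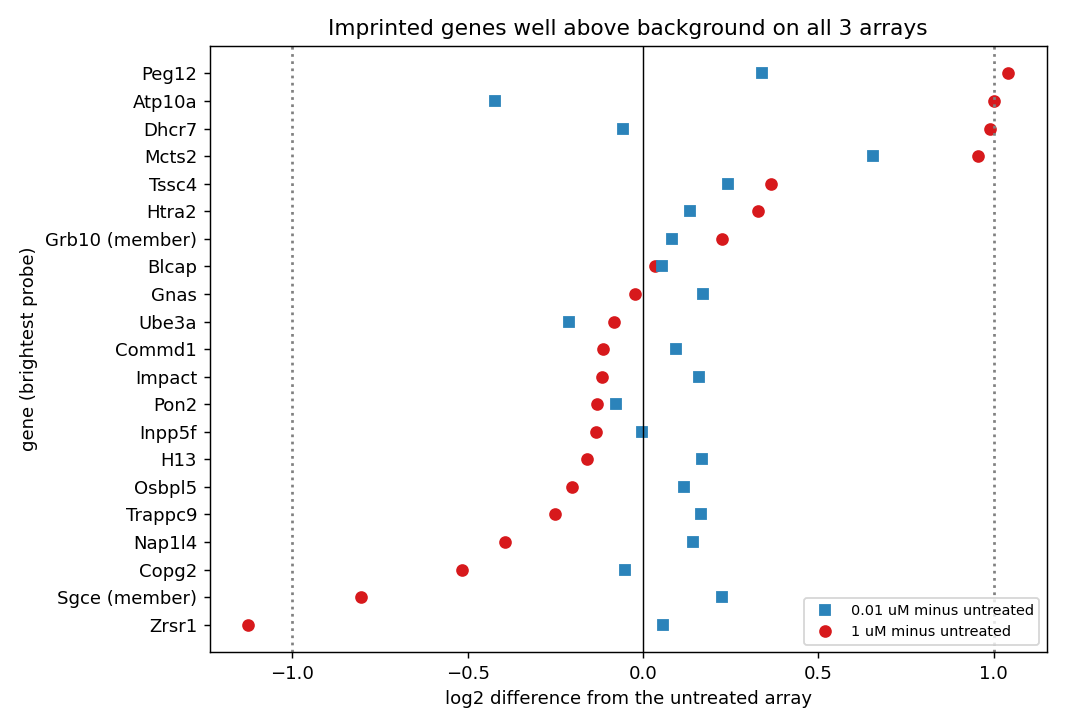
Log2 difference from the untreated array (horizontal axis) of 21 imprinted genes measured on all 3 arrays (vertical axis, brightest probe), 2 of the panel and 19 others, with squares for 0.01 uM and circles for 1 uM; dotted lines mark 2-fold. The 1 uM differences run from -1.13 to 1.04 and the 0.01 uM differences from -0.42 to 0.66, with Sgce second lowest at 1 uM.

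Genes that act with the panel's products were taken from lists. Of 12 sarcoglycan and dystrophin complex genes, 7 were above background on each array, beside 42.9% (untreated), 38.8% (0.01 uM) and 43% (1 uM) of all genes. Dag1, which encodes dystroglycan and anchors the complex, differed by -0.99 between 1 uM and untreated and by -1.06 between 1 uM and 0.01 uM. Dag1 was the one gene 2-fold apart among the 7 compared in the second of these comparisons, where 6.46% of all genes were lower and 5.2% higher. None was 2-fold apart in the first, where 4.86% of all genes were lower and 5.65% higher. Sgcb, the beta-sarcoglycan gene, differed by 0.25 between 1 uM and untreated at its brightest probe and by -0.08 at another. The list's median was -0.37 for 1 uM against untreated, beside -0.03 over all genes.

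Of 14 insulin and IGF signalling genes, 12 were detected on the untreated array, beside 42.9% of all genes. Of the 12 compared between 1 uM and untreated, 2 were lower by 2-fold or more (4.86% of all genes) and none was higher. These were Igf2, given above, and Igf1, a growth factor ligand, at least 2.94-fold lower. Against 0.01 uM the same 2 genes were called, with Igf2 at -3.91 and Igf1 at least 3.49-fold lower.

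Of 16 cell cycle inhibitor and G1 genes, 13 were compared between 1 uM and untreated, and 1 was higher by 2-fold or more (5.65% of all genes) and none lower. It was Ccne1, which encodes cyclin E, at 2.25-fold. Against 0.01 uM, 2 of 12 were higher (5.2% of all genes), Ccne1 at 2.10-fold and Cdk6, a kinase partner of D-type cyclins, at 2.15-fold. On the log2 scale, Cdk6 differed by 0.96 between 1 uM and untreated at that probe and by 0.09 at another. Cdkn1a, the brightest of the list and a relative of Cdkn1c, differed by -0.13 between 1 uM and untreated.

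Of 15 Notch and adipogenic genes, 14 were compared between 1 uM and untreated, and 3 were lower by 2-fold or more (4.86% of all genes) and none higher. Hes1 and Hey1, transcriptional repressors induced by Notch signalling, differed by -2.69 and -1.09, and Cebpa, an adipogenic transcription factor gene, was at least 2.98-fold lower. Against 0.01 uM, 2 of 14 were lower (6.46% of all genes), Hes1 at -3.11 and Cebpa at least 3.80-fold.

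Of 16 imprint maintenance genes, 13 were detected on the untreated array, beside 42.9% of all genes. None of those compared was 2-fold apart in any of the 3 comparisons. Over all genes, 5.65% were higher and 4.86% lower for 1 uM against untreated, and 5.2% and 6.46% for 1 uM against 0.01 uM. For 0.01 uM against untreated, 0.269% were higher and 0.168% lower. Of the brightest imprint maintenance genes, Trim28, a corepressor that protects imprints, differed by -0.02 between 1 uM and untreated. Uhrf1, a cofactor of maintenance DNA methylation, differed by 0.80. None of 10 proliferation genes was 2-fold apart in any of the 3 comparisons, beside the same shares of all genes. The brightest of these 10 were Pcna, a replication clamp, which differed by 0.41 between 1 uM and untreated, and Birc5, which encodes survivin, which differed by -0.15.

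**Figure D5:**
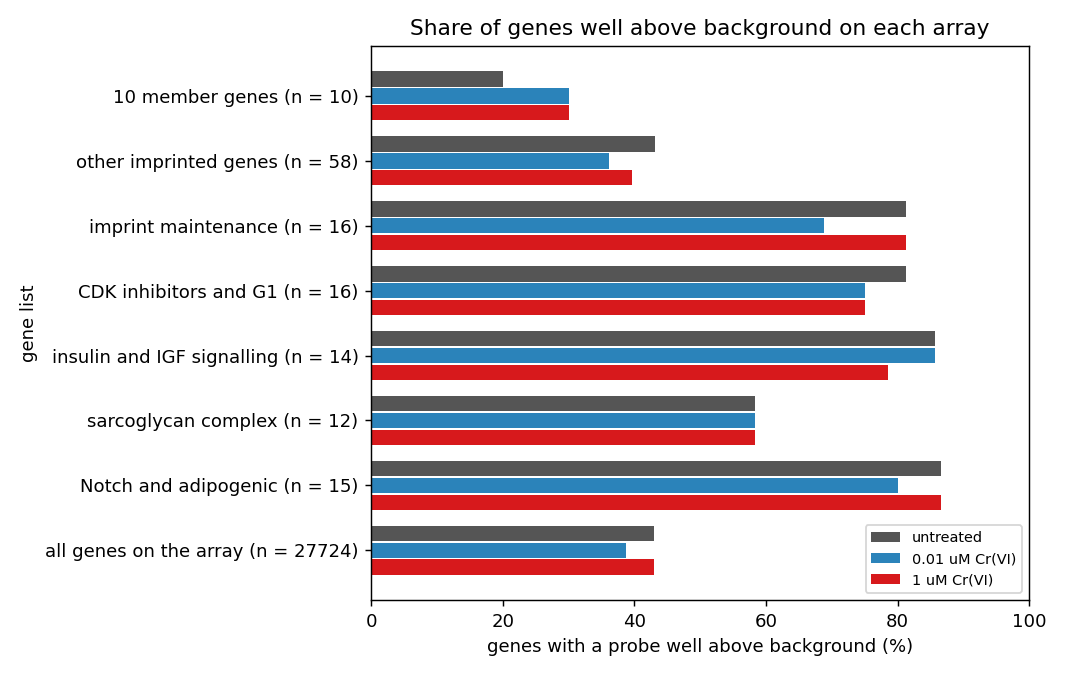
Percentage of genes with any probe well above background (horizontal axis) in each gene list (vertical axis, number of genes in brackets) on the untreated, 0.01 uM and 1 uM arrays, 1 bar per array. The panel stands at 20%, 30% and 30% in order of rising dose, and the insulin and IGF list at 85.7% on the untreated array.

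Markers of fibroblasts were present, 10 of 10 above background on the untreated and 0.01 uM arrays and 9 on the 1 uM array, where Thy1 was not. Col1a1 and Col1a2 were saturated on all 3 arrays, and Fn1 and Dcn on the untreated array, so these 4 set no measured change there. The summed scaled signal of the 6 markers saturated on no array was 211 (untreated), 246 (0.01 uM) and 160 (1 uM). It leans on the brightest probes, those of Vim and Col3a1, and its part in the Sgce difference was not tested. Of the 6, Lum and Pdgfra were higher at 1 uM than untreated, by 0.97 and 0.21 on the log2 scale, and the others lower. At another probe Pdgfra differed by -0.39. Among the fibroblast markers, Thy1 was at least 50.2-fold lower at 1 uM than untreated and Fn1, the fibronectin gene, at least 2.20-fold lower. Against 0.01 uM, Fn1 differed by -1.26, Lum, which encodes the matrix proteoglycan lumican, by 1.29, and Thy1 was at least 74.3-fold lower.

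Of the blood cell markers, 2 of 7 were above background on every array, Cd68 and Lyz2, both macrophage markers. Cd68 read 2.08 (untreated), 2.01 (0.01 uM) and 2.04 (1 uM), and Lyz2 read -1.07, -0.96 and -1.39 in the same order. Ptprc, Csf1r, Tyrobp, Cd3e and Cd79a were not above background. Epithelial markers were at 0 of 5 on every array, Cdh1 and Krt8 included. Neuronal markers were at 2 of 4 on each array, Map2 and Tubb3, which differed by -0.59 and 0.52 between 1 uM and untreated. In order of rising dose, endothelial markers were at 1, 1 and 2 of 5. Cdh5, a junction cadherin gene, exceeded untreated by at least 3.78-fold at 1 uM, at 1 of its 2 probes, and exceeded 0.01 uM by at least 2.02-fold. Vwf, the endothelial marker detected on every array, went the other way at its brightest probe. It differed by -0.55 between 1 uM and untreated and by -0.63 between 1 uM and 0.01 uM. Skeletal muscle markers were at 2, 1 and 2 of 5 in the same order. Acta1, a muscle actin gene, differed by -1.26 between 1 uM and untreated and by -1.42 between 1 uM and 0.01 uM. Des, the other skeletal muscle marker detected, differed by 0.27 between 1 uM and untreated, with both signals near the detection limit. It had no value against 0.01 uM. The part of these cell types in the results was not tested.

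The median SD between replicate spots of a detected probe was 0.058 (untreated), 0.057 (0.01 uM) and 0.062 (1 uM) on the log2 scale, and no probe of the panel was spotted more than once.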

How the data were processed

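The 3 groups of 1 sample each were measured on 1 slide of Agilent whole-genome mouse arrays. The deposited spot intensity came from Agilent Feature Extraction 10.5.1.1, per the file headers, run on 1 Cy3 channel with background subtraction and detrending, and a dim spot carries a substitute floor value. The log2 values of the authors' deposited table, of unstated making, have the scale used here.

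Control and outlier-flagged spots were left out, and log2 signal was taken minus each array's 75th percentile. Genes were read at the probe brightest over the 3 arrays. A comparison needed that probe to be well above background on either array. With a dim side it gave a bound, the bright value against the dim one or the lowest detected signal, whichever was higher. Compared genes that gave no value, through dimness or saturation, stayed in the totals. A value was had for 12204 genes (1 uM against untreated), 10842 (0.01 uM against untreated) and 11330 (1 uM against 0.01 uM). A fold was given no p-value, since each group had 1 array, and the number of arrays limits every precision. Technical errors come from the software's error model.

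Members and lists were chosen with earlier results of these data known. The text names all members and list genes past 2-fold (at most 4 per direction and comparison). It also names the 2 brightest of a list with none in any comparison. Cluster neighbours and probes shown were chosen after their values were seen. So were Cdkn1a, Sgcb, Vwf, Des, Vim, Col3a1, Pdgfra and further probes of Sgcb, Cdk6 and Pdgfra. No member met the rule for naming genes of like pattern. Names and promoters came from RefSeq (GRCm38.p6), and probe positions from the array files (mm9). Alternatives were other scalings, filters, probe averaging and background correction (limma 3.58.1, R 4.3.3). Python 3.11.15 with pandas 2.3.3 did the rest. The counting was tested on simulated data.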

Additional observations from a re-analysis of the deposited data

How the results depend on the processing

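The direction of Sgce at 1 uM held in all 11 settings run, but its size depended on the scaling. The log2 difference of 1 uM against untreated ran from -0.80 to -0.13, the smallest with spike-in scaling. That scaling moved the median of all genes detected on the 3 arrays from -0.07 to 0.61. For 1 uM against 0.01 uM the median of the same genes was -0.12 under the reported processing. Sgce ran from -1.03 to -0.65 in that comparison and was 2-fold lower in 6 of 11 settings. The count of lower genes was then 0 with the 75th percentile of detected probes, quantile normalization, loess or spike-in scaling, and 2 with no filter on dim probes, which added Peg3. With normexp it was 1, Peg3 in place of Sgce. The count of higher genes for 0.01 uM against untreated was 1 (Peg3) with quantile normalization, spike-in scaling, no filter or outlier spots kept. For 1 uM against untreated it was 1 with spike-in scaling (Plagl1) and 1 with no filter (H19), and for 1 uM against 0.01 uM it was 2 with no filter (H19 and Plagl1). Grb10 ranged from 0.23 to 0.90 for 1 uM against untreated, and from -0.02 to 0.38 for 0.01 uM against untreated. The cause of these shifts was not tested. Grb10 probe 1 stayed higher at 1 uM than untreated, by 0.77 to 1.95. Its values against 0.01 uM ran from 0.55 to 1.51, and these are lower bounds except with no filter. The Plagl1 value for 1 uM against untreated ran from 0.30 to 1.40. Peg3 ran from 0.51 to 3.23 for 0.01 uM against untreated and from -3.00 to -0.37 for 1 uM against 0.01 uM, the far ends with no filter, where they are no bounds. No paired analysis was possible because each group had 1 array. Signal over background limits H19, Meg3, Cdkn1c, Dlk1, Mest and Ndn, for which no difference could be set, and Peg3 and Plagl1, which have bounds.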
